A study of Mus musculus with 54 samples.

Results

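The chains of the IL-4 receptor, 3 chains of the interferon receptors and the Janus kinases (JAKs) bound to them were followed through 15 conditions of mouse peritoneal macrophages. The 10 genes were chosen by symbol (Il4ra, Il13ra1, Il2rg, Ifngr1, Ifngr2, Ifnar1, Jak1, Jak2, Jak3 and Tyk2), out of 39179 genes in the count data, and all 10 passed the filter on low counts in both experiments. The study asked which genes set M1-like and M2-like macrophages apart and whether silencing transcription factors moves M2-like macrophages toward the M1-like state. Cells were elicited with thioglycolate in C57BL/6 mice and collected from the peritoneum. In the polarization experiment, adherent cells of 3 mice were left untreated (M0) or kept for 24 h with LPS and IFNγ (M1-like) or with IL-4 (M2-like), with 2 technical replicates that were summed per mouse. In the reprogramming experiment, 12 conditions with 3 replicates each were used, and RNA was taken 48 h after transfection.

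Untransfected cells of the reprogramming experiment were M0, M1-like or M2-like, and each condition had a mock counterpart that received the transfection reagent without siRNA. The other 6 conditions were M2-like macrophages transfected with a negative siRNA pool, with a pool against E2f1, Myc, Pparg or Stat6, or with these pools combined. The paper names Dharmacon as the source of the Myc pool and siTools Biotech for the E2f1, Pparg and Stat6 pools. It names no source for the negative pool. After transfection the M2-like cells were cultured without IL-4. The harvest time of the untransfected conditions and the presence of LPS and IFNγ after polarization are not given in the sources used here. Nothing in the labels says whether the replicates of the reprogramming experiment came from separate mice. For RNA isolation the paper lists 3 biological replicates of M0, M1-like, M2-like and combined-pool macrophages, without naming mice or the other conditions. The p-values of this experiment therefore measure the spread between these samples, which may not be that between mice. Libraries held 13421854 to 29880494 counted reads, which gave 221 to 32690 reads per gene and sample for the 10 genes. Macrophage markers (Adgre1, Csf1r, Cd68, Itgam, Lyz2, Fcgr1 and Mertk) were detected in every sample, with at least 638 reads each, whereas the T cell markers Cd3d, Cd3e and Cd3g stayed at or below 0.722 CPM. Lat, from the same T and NK cell list, ranged from 1.96 to 57.6 CPM. Levels are given in CPM, read counts scaled to a common library size after TMM normalization. In bulk RNA, fewer cells of a type and less RNA per cell cannot be told apart.

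IL-4 binds Il4ra, which pairs with Il2rg (the common gamma chain) in the type I receptor or with Il13ra1 in the type II receptor, and the type II receptor also binds IL-13. Il4ra signals through Jak1, Il2rg through Jak3, and Il13ra1 through Tyk2 or Jak2, and the main transcription factor downstream is Stat6. IFNγ binds Ifngr1, which carries Jak1, and Ifngr2, which carries Jak2, whereas type I interferons act through Ifnar1 with Tyk2 and Ifnar2 with Jak1.

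In GENCODE M21 on GRCm38, the IL-4 receptor chains are Il4ra (ENSMUSG00000030748, chr7:125552120-125579474, plus strand), Il13ra1 (ENSMUSG00000017057, chrX:36112110-36171259, plus strand) and Il2rg (ENSMUSG00000031304, chrX:101264378-101268255, minus strand). The interferon receptor chains are Ifngr1 (ENSMUSG00000020009, chr10:19591949-19610229, plus strand), Ifngr2 (ENSMUSG00000022965, chr16:91547072-91565623, plus strand) and Ifnar1 (ENSMUSG00000022967, chr16:91485238-91507441, plus strand). The kinases are Jak1 (ENSMUSG00000028530, chr4:101152367-101265282, minus strand), Jak2 (ENSMUSG00000024789, chr19:29251828-29313080, plus strand), Jak3 (ENSMUSG00000031805, chr8:71676296-71690575, plus strand) and Tyk2 (ENSMUSG00000032175, chr9:21104068-21131243, minus strand).

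Promoter sequences of all 10 genes (300 bases, 250 before to 50 after the RefSeq start site, GRCm38.p6) were found in RefSeq. They are shown for Il2rg and Jak2, which rose in M1-like macrophages of both experiments, for Ifngr1, which fell in both, and for Ifngr2 and Ifnar1, which alone hold a searched motif. Capitals mark the matches, and each sequence is given 5′ to 3′ on the strand of its gene.
Il2rg (chrX:101268206-101268505, minus strand): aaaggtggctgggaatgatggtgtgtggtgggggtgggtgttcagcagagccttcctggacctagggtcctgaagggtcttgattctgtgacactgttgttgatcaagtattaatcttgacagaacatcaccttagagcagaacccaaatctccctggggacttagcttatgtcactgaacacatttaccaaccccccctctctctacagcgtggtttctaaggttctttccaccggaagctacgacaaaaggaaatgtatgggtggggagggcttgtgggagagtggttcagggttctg
Jak2 (chr19:29251553-29251852, plus strand): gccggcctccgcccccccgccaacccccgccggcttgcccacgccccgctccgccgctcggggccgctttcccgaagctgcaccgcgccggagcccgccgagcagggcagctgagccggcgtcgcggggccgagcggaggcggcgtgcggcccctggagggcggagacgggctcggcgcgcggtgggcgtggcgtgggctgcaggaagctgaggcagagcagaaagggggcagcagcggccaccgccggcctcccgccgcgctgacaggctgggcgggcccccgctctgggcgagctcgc
Ifngr1 (chr10:19591699-19591998, plus strand): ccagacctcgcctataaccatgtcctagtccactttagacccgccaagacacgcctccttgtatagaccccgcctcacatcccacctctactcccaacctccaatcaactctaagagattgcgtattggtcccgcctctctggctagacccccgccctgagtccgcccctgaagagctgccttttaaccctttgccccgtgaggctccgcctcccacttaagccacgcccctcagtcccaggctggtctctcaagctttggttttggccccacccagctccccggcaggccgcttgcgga
Ifngr2 (chr16:91546809-91547108, plus strand): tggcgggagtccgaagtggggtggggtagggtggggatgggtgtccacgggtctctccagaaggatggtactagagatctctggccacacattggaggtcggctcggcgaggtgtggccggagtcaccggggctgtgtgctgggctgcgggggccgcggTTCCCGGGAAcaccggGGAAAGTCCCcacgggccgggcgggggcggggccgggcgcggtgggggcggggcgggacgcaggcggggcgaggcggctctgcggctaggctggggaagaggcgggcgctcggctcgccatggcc
Ifnar1 (chr16:91484965-91485264, plus strand): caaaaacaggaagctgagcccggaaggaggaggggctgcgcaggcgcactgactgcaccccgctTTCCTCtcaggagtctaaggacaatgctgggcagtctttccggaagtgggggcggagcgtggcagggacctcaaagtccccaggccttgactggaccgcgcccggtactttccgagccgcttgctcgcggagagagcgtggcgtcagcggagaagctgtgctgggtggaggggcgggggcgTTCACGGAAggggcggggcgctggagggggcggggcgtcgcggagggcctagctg

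Both strands were searched for 5 motifs. The letters TTCNNNGAA of the GAS element are in 8.47% of 27025 promoters and, among the 10 genes, in Ifnar1, where TTCACGGAA begins 5 bases before the start site. The spacing preferred by Stat6, TTC and GAA parted by 4 bases, is in 6.99% of promoters and here in Ifngr2, where TTCCCGGGAA begins 91 bases before the start. The NF-kB letters GGGA and TTCC parted by 2 bases are in 1.43% of promoters and again in Ifngr2, on the opposite strand, beginning 75 bases before the start. The PU.1 core GAGGAA is in 28.31% of promoters and here in Ifnar1, on the opposite strand. None of the 10 promoters holds GAAA repeated after 2 bases, the interferon-stimulated response element, which is in 3.49% of all promoters. The promoter of Jak2 has 81.0% G and C and 44 CpG dinucleotides, that of Il2rg has 50.3% and 3, and the median over all promoters is 52.7% and 7 CpG. A match is a description of letters and no evidence of binding.

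**Figure D1:**
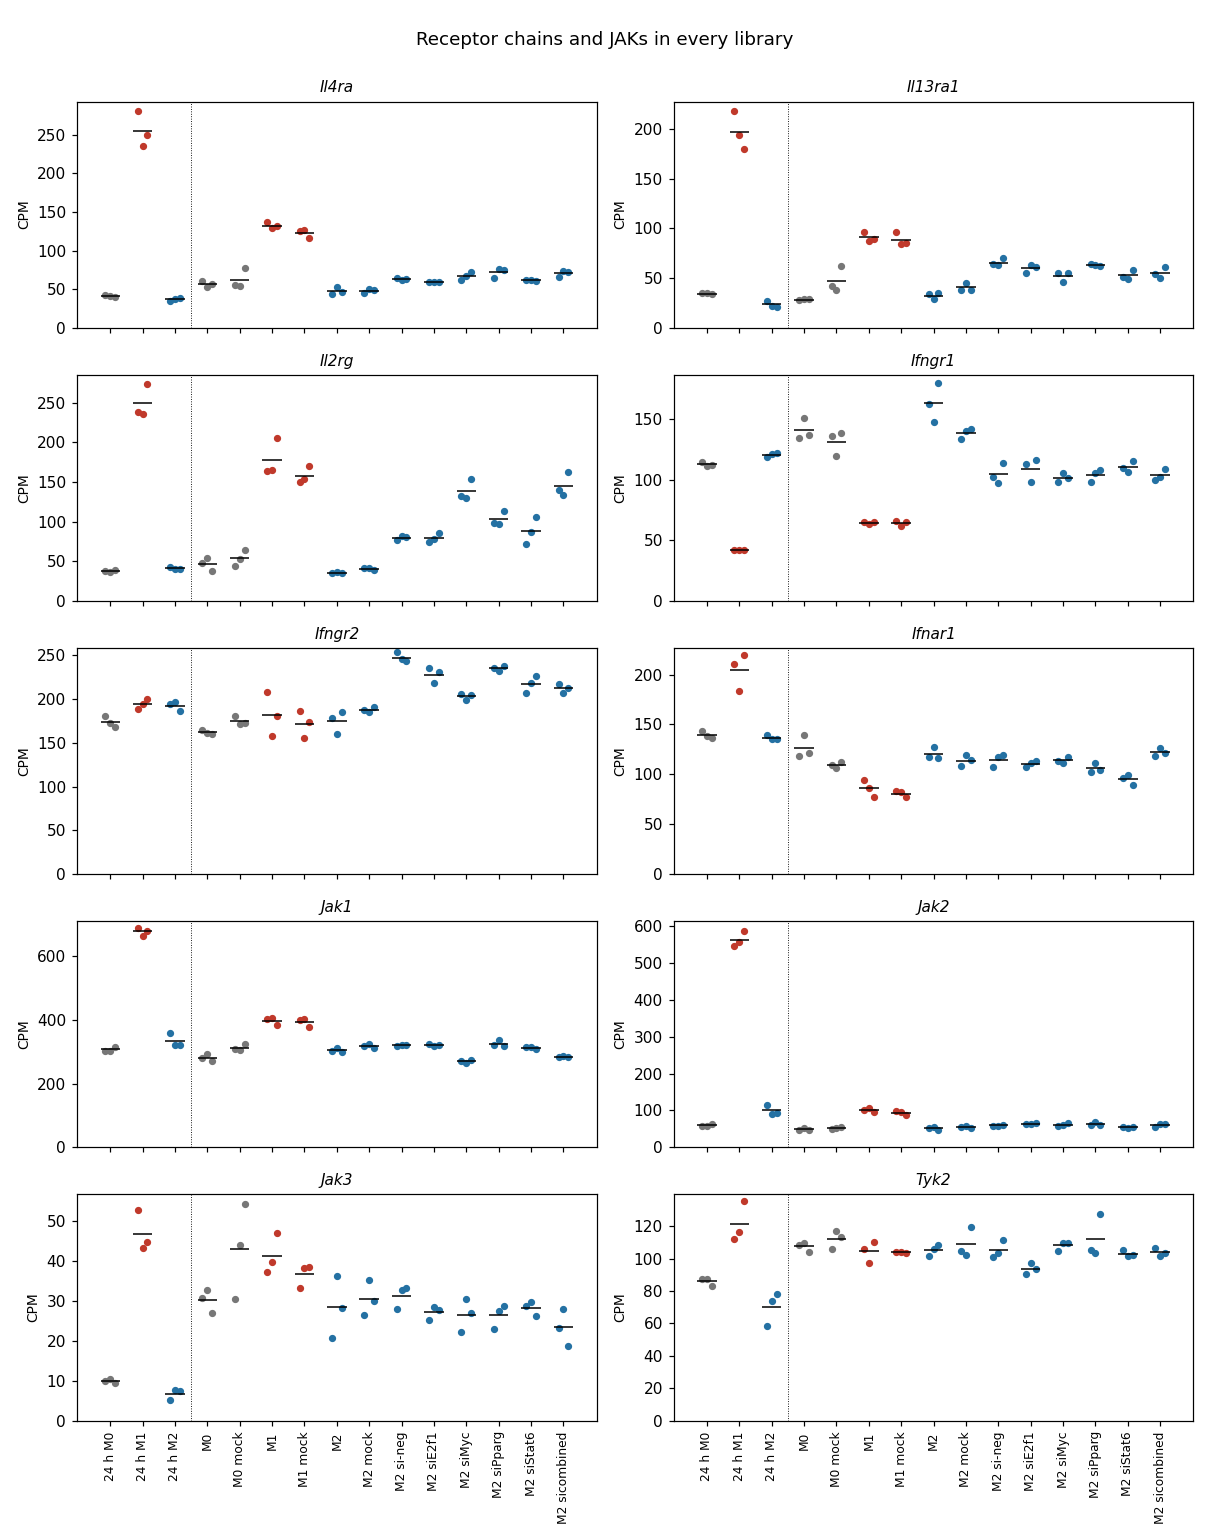
Normalized expression (CPM, linear axis from 0) of each of the 10 genes in every sample, with 3 points per condition and a black line at their mean. Grey points are M0, red M1-like and blue M2-like macrophages, and the dotted line parts the polarization experiment (left) from the reprogramming experiment (right). Jak2 peaked in the M1-like macrophages at 24 h (563 CPM on average).

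At 24 h, LPS and IFNγ raised all 3 chains of the IL-4 receptor. Il4ra stood at 42.9, 41.2 and 39.4 CPM in the 3 mice in M0 and at 281, 235 and 249.99 CPM in M1-like macrophages. Every M1-like sample lay above every M0 sample, a log2 fold change of 2.63 ± 0.08 (SE, adjusted p = 2.08e-11) by edgeR's quasi-likelihood test with Benjamini-Hochberg adjustment over all genes tested, as for each adjusted p here. Il13ra1 went from 34.5, 34.8 and 33.7 CPM to 218, 194 and 179.9 CPM. The groups were apart, with a log2 fold change of 2.52 ± 0.10 (SE, adjusted p = 3.15e-10). For Il2rg the M0 samples had 38.1, 37.1 and 38.8 CPM and the M1-like samples 238, 236 and 273 CPM, again without overlap, with a log2 fold change of 2.71 ± 0.07 (SE, adjusted p = 7.56e-12).

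The chains of the IFNγ receptor did not move together. Ifngr1, the ligand-binding chain, had 114, 111 and 112 CPM in M0 and 42.0, 41.9 and 42.3 CPM in M1-like macrophages. It was the only one of the 10 genes that fell, with a log2 fold change of -1.42 ± 0.05 (SE, adjusted p = 8.22e-11) and no overlap. Ifngr2, the accessory chain, had 180.1, 172 and 168 CPM in M0 against 189, 194 and 199.6 CPM in M1-like macrophages at log2 fold change 0.16 ± 0.06 (SE, adjusted p = 0.0183). This small increase was lost without mouse 2 or 3 of M0 or without mouse 3 of the M1-like macrophages, with adjusted p between 0.0523 and 0.0821. Ifnar1, a chain of the type I interferon receptor, rose from 144, 138 and 136 CPM to 210.4, 184 and 219.6 CPM, a log2 fold change of 0.55 ± 0.07 (SE, adjusted p = 1.42e-05).

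Among the kinases, Jak2 changed most. It had 58.8, 58.0 and 62.3 CPM in M0 and 546, 557 and 586 CPM in M1-like macrophages at log2 fold change 3.24 ± 0.09 (SE, adjusted p = 1.77e-11). Jak3, the kinase of the common gamma chain, rose from 9.88, 10.4 and 9.36 CPM to 52.7, 43.1 and 44.7 CPM, with a log2 fold change of 2.25 ± 0.13 (SE, adjusted p = 1.17e-08). Jak1 was the most abundant of the 4 in M0, at 304, 304 and 315 CPM, and reached 689, 665 and 680.1 CPM. Its log2 fold change was 1.14 ± 0.06 (SE, adjusted p = 5.88e-09), and that of Tyk2 was 0.50 ± 0.10 (SE, adjusted p = 0.000736), from 87.1, 87.5 and 83.3 CPM to 112, 116 and 136 CPM. In none of the 4 kinases did M0 and M1-like samples overlap. With 3 samples against 3, full separation alone cannot give an exact permutation p below 0.1. How often groups were apart over all genes is not given, here and below. In all, 9 of the 10 genes were higher and 1 lower, while 72.9% (35.4% higher and 37.5% lower) of all genes were called. The median log2 fold change at 24 h was 1.69 over the 10 genes and -0.04 over all genes tested.

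IL-4 gave smaller differences. In M2-like macrophages at 24 h, 1 of the 10 genes rose and 3 fell against M0, beside 27.9% (13.5% higher and 14.4% lower) of all genes called. Jak2 reached 115, 91.3 and 93.0 CPM, above all M0 samples, with a log2 fold change of 0.74 ± 0.09 (SE, adjusted p = 8.7e-05). Il13ra1 fell to 27.3, 21.6 and 21.2 CPM, a log2 fold change of -0.56 ± 0.10 (SE, adjusted p = 0.00149). The values of Jak3 were 5.12, 7.77 and 7.31 CPM, all below M0, and its log2 fold change was -0.54 ± 0.14 (SE, adjusted p = 0.0113). Tyk2 had 58.7, 73.8 and 77.9 CPM and a log2 fold change of -0.29 ± 0.10 (SE, adjusted p = 0.0486), a call that was lost without any one of the M0 mice or without mouse 1 or 2 of the M2-like macrophages (adjusted p from 0.0647 to 0.141). Il4ra, the chain that binds IL-4, had 34.5, 36.9 and 38.2 CPM, all below M0, but its log2 fold change of -0.17 ± 0.07 (SE, adjusted p = 0.109) did not pass the test. The IL-4 response genes (Arg1, Chil3, Retnla and others) were higher for 12 of 12 tested in the same samples.

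Set directly against M2-like macrophages, M1-like macrophages at 24 h had 8 of the 10 genes higher and 1 lower, beside 72.6% (34.6% higher and 38.1% lower) of all genes called. Il13ra1 differed most, by 3.08 ± 0.10 (SE, adjusted p = 6.63e-11), followed by Il4ra with log2 fold change 2.80 (adjusted p = 1.31e-11) and Jak3 with log2 fold change 2.79 (adjusted p = 2.16e-09). Ifngr1 differed by -1.52 (adjusted p = 4.69e-11) on the log2 scale. Ifngr2 had 194, 196 and 186 CPM in M2-like macrophages, which overlapped the M1-like samples. These comparisons share the M1-like samples with those above and are not independent of them.

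Per kilobase of exon, the order of the genes changed with polarization. In M0 at 24 h the highest mean levels were those of Ifngr2 with 46.0, Jak1 with 42.6 and Ifngr1 with 39.6 CPM per kilobase, and the lowest was that of Jak3 with 1.84. In M1-like macrophages Jak2 had 112, Il2rg 104 and Jak1 93.8 CPM per kilobase, while Ifngr1 had 14.8. Il2rg shares 728 of its 2387 exon bases with the annotated readthrough gene Gm20489, Tyk2 554 of 6865 with 1700084C06Rik on the other strand, and Jak3 404 of 5352 with Insl3. How reads in shared bases were counted is not given in the sources used here. With only the unshared bases as length and all counted reads kept, Il2rg in M0 was at 22.9 instead of 15.9 CPM per kilobase. In M1-like macrophages Il2rg was then at 150.3 CPM per kilobase, above Jak2 at 112, so the order of these genes depends on the length used.

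Other genes of the pathway were taken from fixed lists. Of 32 other JAK-coupled receptors, 25 were tested, and 14 were higher and 5 lower in M1-like macrophages against M0 at 24 h, to be read against the 72.9% of all genes called in that comparison. Il15ra, which presents IL-15, differed by 6.04 ± 0.10 (SE) and Il21r, the IL-21 receptor, by 3.41 ± 0.17, both on the log2 scale. Il10rb, a chain of the IL-10 receptor, fell, with -1.02 ± 0.07. Of 20 JAK adaptors and inhibitors tested, 10 were higher and 4 lower, among them Usp18, an inhibitor of type I interferon signalling, with 5.72 ± 0.12, and the phosphatase Ptpn2 with 2.09 ± 0.09. All 11 interferon response genes tested were higher, for example Gbp2 with 8.71 ± 0.17. Of 5 ligands tested, 3 rose and 1 fell, with Il15 at 2.82 ± 0.11. In M2-like macrophages the receptors counted 5 higher and 3 lower, led by Il6st, the shared chain of the IL-6 family, with 1.35 ± 0.06, and the adaptors and inhibitors 2 higher and 7 lower, where 27.9% of all genes were called.

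**Figure D2:**
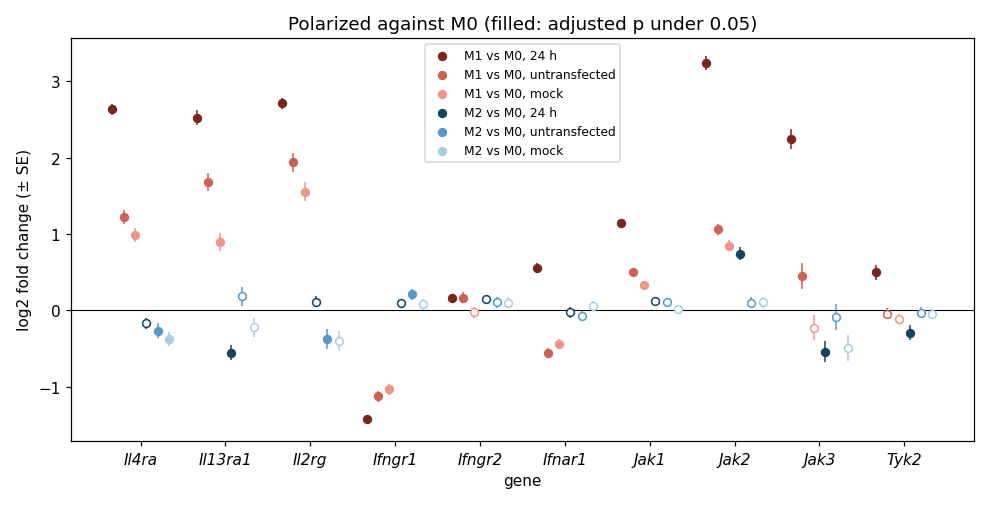
Log2 fold changes (vertical axis) of the 10 genes against M0, with standard errors as bars, for M1-like (red shades) and M2-like (blue shades) macrophages at 24 h, untransfected and mock. Filled symbols passed an adjusted p of 0.05. Red symbols of the IL-4 receptor chains lie above 0, and those of Ifngr1 below.

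In the untransfected macrophages of the reprogramming experiment, the IL-4 receptor chains were again higher in M1-like macrophages. Il4ra had 60.6, 52.9 and 56.3 CPM in M0 and 137, 129 and 132 CPM in M1-like samples, a log2 fold change of 1.23 ± 0.09 (SE, adjusted p = 4.83e-13). Il13ra1 had 27.6, 28.4 and 28.9 CPM against 96.0, 87.5 and 89.0 CPM, with log2 fold change 1.68 ± 0.12 (SE, adjusted p = 1.6e-13). Il2rg went from 47.8, 53.5 and 37.7 CPM to 164, 165 and 206 CPM, with log2 fold change 1.94 ± 0.13 (SE, adjusted p = 1.61e-14). None of these groups overlapped. In this comparison 7 of the 10 genes were higher and 2 lower, beside 57.7% (29% higher and 28.7% lower) of all genes called. The difference between the experiments was not tested, since read length and sequencing facility differed and the harvest time of these samples is not given.

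Ifngr1 fell here too, from 134, 151 and 137 CPM to 65.0, 63.2 and 65.4 CPM, a log2 fold change of -1.13 ± 0.08 (SE, adjusted p = 2.78e-14). Ifnar1, which was higher in M1-like macrophages at 24 h, was lower here, at 94.6, 86.1 and 76.9 CPM against 118, 139 and 121 CPM in M0. The groups were apart, and the log2 fold change was -0.56 ± 0.07 (SE, adjusted p = 3.19e-08). Jak2 rose from 46.2, 51.5 and 47.7 CPM to 103, 105 and 96.0 CPM, with log2 fold change 1.06 ± 0.07 (SE, adjusted p = 1.35e-14), and Jak1 by 0.50 ± 0.05 (SE, adjusted p = 1.58e-10). Neither call was lost in another fit or without any one replicate. Jak3 passed with log2 fold change 0.45 (adjusted p = 0.0221) and lost its call without replicate 3 of M0 or of the M1-like macrophages (adjusted p 0.0939 and 0.113). Ifngr2 passed with log2 fold change 0.17 (adjusted p = 0.0468), but its groups overlapped, and without each replicate of M0, or without replicate 1 or 3 of the M1-like macrophages, adjusted p was 0.0714 to 0.497. With DESeq2 it was 0.056 and with RLE size factors 0.0657. Tyk2 had a log2 fold change of -0.04 (adjusted p = 0.625). Of 24 other JAK-coupled receptors tested, 6 were higher and 11 lower, where 57.7% of all genes were called, such as Il15ra with 3.45 ± 0.13 and Il27ra, a chain of the IL-27 receptor, with -2.68 ± 0.18, and of 20 adaptors and inhibitors 6 were higher and 7 lower.

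Markers of other cells also differed in these samples. The summed macrophage markers were 6642 to 7786 CPM in untransfected M1-like samples and 16475 to 16833 CPM in M0. Most of this sum was Lyz2, with means of 4201 CPM in M1-like samples and 12202 CPM in M0. Adgre1, Csf1r, Cd68 and Fcgr1 were also lower, whereas Itgam overlapped and Mertk had a higher mean (121 against 106 CPM). The sum for mesothelial cells and fibroblasts (Msln, Upk3b, Wt1, Col1a1 and Col3a1) was 14.8 to 51.0 CPM against 66.9 to 136 CPM. The eosinophil list (Prg2, Epx, Ccr3 and Siglecf) summed to 0.610 to 1.70 CPM against 16.1 to 24.3 CPM, nearly all of it Siglecf, which fell by 4.28 ± 0.30 (SE) on the log2 scale (adjusted p = 1.18e-13). The T and NK cell list summed to 2.14 to 3.15 CPM against 9.06 to 12.6 CPM, most of it Lat, which fell by 2.11 ± 0.27 (SE) (adjusted p = 6.95e-08), with Cd3d, Cd3e and Cd3g at or near 0. The neutrophil list (S100a8, S100a9, Ly6g, Mpo and Retnlg) was higher, at 12.2 to 13.1 CPM against 6.02 to 10.2 CPM. Nearly all of this sum was S100a8, which rose by 0.71 ± 0.21 (SE, adjusted p = 0.0047) on the log2 scale. S100a9, Ly6g, Mpo and Retnlg were at or near 0 in both groups. The mast cell list (Cpa3, Kit, Mcpt4, Ms4a2 and Tpsb2) stayed at or below 6.32 CPM in every sample. At 24 h the macrophage sum was 10281 to 11296 CPM in M1-like samples and 16107 to 17376 CPM in M0, and the mesothelial and fibroblast sum 2.54 to 4.06 against 10.2 to 17.2 CPM. Siglecf fell by 4.90 ± 0.25 (SE) on the log2 scale at 24 h (adjusted p = 4.19e-09), S100a8 rose by 0.77 ± 0.15 (SE, adjusted p = 0.000695), and Lat had -0.32 ± 0.23 (adjusted p = 0.233). The part of these markers in the differences of the 10 genes was not tested.

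In this experiment M2-like macrophages differed from M0 in fewer of the genes, with 1 gene higher and 2 lower beside 19.9% (10.7% higher and 9.19% lower) of all genes called. Il4ra had 43.1, 52.2 and 45.8 CPM, all below M0, with log2 fold change -0.27 ± 0.09 (SE, adjusted p = 0.0452). Il2rg had 35.6, 36.3 and 35.0 CPM, with log2 fold change -0.38 ± 0.13 (SE, adjusted p = 0.0375), and Ifngr1 162, 148 and 179.5 CPM, with log2 fold change 0.21 ± 0.07 (SE, adjusted p = 0.0409) and overlapping groups. These 3 calls depended on single libraries. None was left without replicate 1 of M0 or without replicate 1 or 3 of the M2-like macrophages, and 1 was left without replicate 3 of M0. Against M2-like macrophages, M1-like macrophages had 6 genes higher and 2 lower beside 61.5% (31.3% higher and 30.2% lower) of all genes called, with Il2rg at 2.32 (adjusted p = 2.26e-16) and Ifnar1 at -0.49 (adjusted p = 3.32e-07). Jak3 was among the 6, with log2 fold change 0.54 (adjusted p = 0.00664), and its adjusted p was 0.0789 without replicate 1 of the M2-like macrophages.

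Il13ra1 was higher in mock M0 than in untransfected M0. Whether these samples were harvested at the same time is not given, so the reagent and time cannot be told apart. Untransfected M0 samples had 27.6, 28.4 and 28.9 CPM and mock M0 samples 42.3, 37.6 and 62.2 CPM, a log2 fold change of 0.74 ± 0.12 (SE, adjusted p = 3.18e-05). All mock samples were above all untransfected ones. In total 3 of the 10 genes were higher and 1 lower, beside 20.4% (11.7% higher and 8.66% lower) of all genes called. Jak3 was spread widely in mock M0, at 30.3, 44.1 and 54.2 CPM, and overlapped M0, with log2 fold change 0.51 ± 0.17 (SE, adjusted p = 0.0291). Jak1 differed by 0.15 (adjusted p = 0.0256) and Ifnar1 by -0.21 (adjusted p = 0.0292). Of these 4 calls, 2 remained without replicate 1 or 3 of M0 or without replicate 2 or 3 of mock M0. In mock M0, 9 of 11 interferon response genes were higher than in M0. Whether this had a part in the spread was not tested.

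Between mock and untransfected M1-like macrophages 0 of 14172 genes were called by edgeR's quasi-likelihood test (0% called), with 438 at an unadjusted p under 0.05 and 0 by DESeq2. None of the 10 genes reached an unadjusted p of 0.05. In M2-like macrophages 0 of the 10 genes were called by edgeR, and 0 by DESeq2, beside 1.77% (1.67% higher and 0.0988% lower) of all genes. An unadjusted p under 0.05 was reached by 1277 of 14172 genes, among them 2 of the 10. These were Il13ra1, from 33.4, 28.6 and 34.5 CPM to 38.2, 45.4 and 37.9 CPM, and Ifngr1, from 162, 148 and 179.5 CPM to 134, 140.4 and 142 CPM. In both genes the groups were apart. Without replicate 2 of the untransfected M2-like macrophages, 1 gene (Ifngr1) was called, with adjusted p = 0.0431. Of 11 interferon response genes, 8 were higher in mock than in untransfected M2-like macrophages, such as Mx1 with 4.83 ± 0.43 and Irf7 with 4.62 ± 0.39.

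Among mock samples, M1-like macrophages had 5 genes higher and 2 lower than M0, beside 60.4% (30.3% higher and 30% lower) of all genes called, and 5 higher and 2 lower than M2-like macrophages, beside 60.7% (30.9% higher and 29.8% lower) of all genes. Il2rg was at 150.1, 154 and 170.1 CPM against 44.6, 52.7 and 63.9 CPM, a log2 fold change of 1.55 ± 0.13 (SE, adjusted p = 2.8e-12). Against mock M0, Il4ra with 0.99, Il13ra1 with 0.90, Jak1 with 0.33 and Jak2 with 0.85 were the other log2 fold changes called above 0, and those of Ifngr1 with -1.04 and Ifnar1 with -0.44 were below 0. The same 5 genes were higher and the same 2 lower against mock M2-like macrophages, which share the M1-like samples. Mock M2-like macrophages had only Il4ra called against mock M0, at 45.0, 49.9 and 48.7 CPM against 55.2, 53.9 and 77.7 CPM, with log2 fold change -0.38 ± 0.09 (SE, adjusted p = 0.018), beside 3.83% (2.19% higher and 1.64% lower) of all genes. Replicate 3 of mock M0 stood at the top, and the call was lost without it (adjusted p = 0.202) or without replicate 1 of mock M2-like macrophages (0.108). Without replicate 1 of mock M0, 3 genes were called.

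The difference of Il13ra1 between M1-like macrophages and M0 was smaller in mock than in untransfected samples. Its mean was 90.9 CPM in untransfected and 88.1 CPM in mock M1-like macrophages, but 28.3 and 47.4 CPM in M0. As above, the reagent and time cannot be told apart. M1-like against M0 gave a log2 fold change of 1.68 (adjusted p = 1.6e-13) without transfection and 0.90 (adjusted p = 6.81e-08) in mock samples, an interaction of -0.79 ± 0.17 (SE, adjusted p = 0.0017). Il13ra1 was the only one of the 10 genes called in this test, beside 9.07% (3.22% higher and 5.85% lower) of all genes. DESeq2 called 3 (Il13ra1, Jak1 and Jak3). An unadjusted p under 0.05 was reached by 5 of the 10 and by 3186 of all 14172 genes. In the M2-like against M0 interaction 0 of the 10 genes were called by edgeR and by DESeq2, beside 5.66% (2.41% higher and 3.25% lower) of all genes called. Here 1 of the 10 and 2711 of 14172 genes had an unadjusted p under 0.05. In the M1-like against M2-like interaction 0 were called by edgeR and by DESeq2, beside 1.13% (0.0353% higher and 1.09% lower) of all genes called. Of the 10 genes 4 had an unadjusted p under 0.05, and of all 14172 genes 1063.

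**Figure D3:**
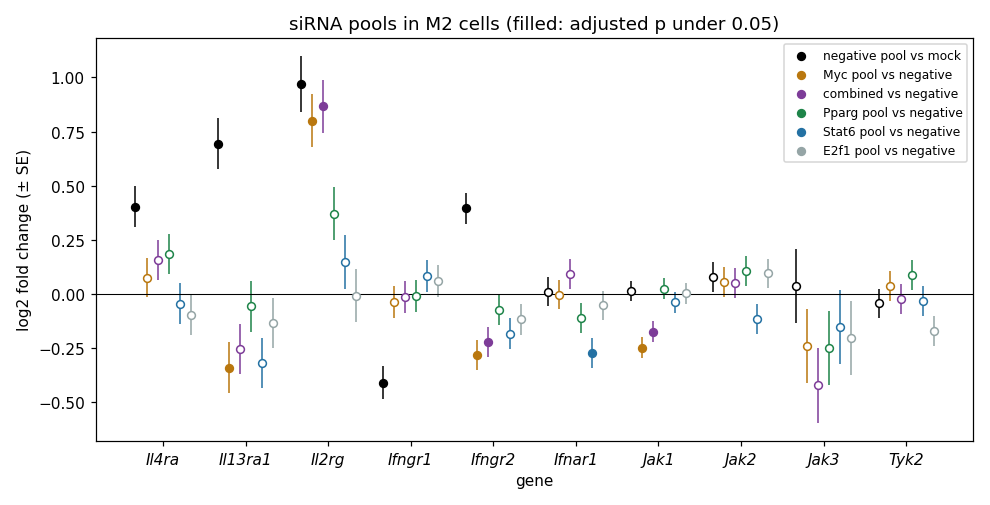
Log2 fold changes (vertical axis) of the 10 genes in M2-like macrophages, with standard errors as bars, for the negative siRNA pool against mock (black) and each targeting pool against the negative pool (colours). Filled symbols passed an adjusted p of 0.05. Among the targeting pools, Il2rg lies highest for the combined and Myc pools.

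The targets of the siRNA pools were lower than with the negative pool. In their own pools the log2 fold changes were -1.98 ± 0.12 (SE) for E2f1, -1.38 ± 0.16 for Myc, -2.19 ± 0.09 for Pparg and -1.87 ± 0.10 for Stat6. In the combined pool they were -0.73 ± 0.11, -1.33 ± 0.16, -1.82 ± 0.08 and -0.89 ± 0.09 in the same order. Pparg was also lower with the Myc pool (-0.62, adjusted p = 6.82e-07), the Stat6 pool (-0.35, adjusted p = 0.016) and the E2f1 pool (-0.33, adjusted p = 0.0366). No other target passed the test in a single pool not directed at it. Against mock, the negative pool itself had lower E2f1 (-0.42, adjusted p = 0.00715), and the other targets did not pass. The 5 comparisons with the negative pool share its 3 samples.

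The negative pool itself moved 5 of the 10 genes against mock, 4 up and 1 down, beside 11.7% (6.67% higher and 5.03% lower) of all genes called. Il2rg had 41.1, 41.9 and 39.0 CPM with mock and 76.4, 82.2 and 80.3 CPM with the negative pool, a log2 fold change of 0.97 ± 0.13 (SE, adjusted p = 2.49e-06). Il13ra1 rose from 38.2, 45.4 and 37.9 CPM to 63.8, 62.7 and 70.0 CPM, with log2 fold change 0.69 ± 0.12 (SE, adjusted p = 0.000105). The third chain, Il4ra, rose from 45.0, 49.9 and 48.7 CPM to 64.2, 62.2 and 63.5 CPM, with log2 fold change 0.40 ± 0.09 (SE, adjusted p = 0.00348). All groups were apart, and no other fit or left-out library ended these calls.

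Ifngr1 and Ifngr2 moved in opposite directions with the negative pool. Ifngr1 fell from 134, 140.4 and 142 CPM to 102, 97.2 and 114 CPM, a log2 fold change of -0.41 ± 0.07 (SE, adjusted p = 0.000239). Ifngr2 rose from 187, 185 and 191 CPM to 253, 245 and 243 CPM, with log2 fold change 0.40 ± 0.07 (SE, adjusted p = 0.000208). The negative pool gave the highest Ifngr2 level of the 12 conditions. The 5 other genes did not pass the test. Of 11 interferon response genes, 8 were higher and 1 lower, such as Rsad2 with 2.09 ± 0.20. The summed eosinophil markers were 33.5 to 38.8 CPM with the negative pool and 18.8 to 20.1 CPM with mock, nearly all of it Siglecf, with Epx and Prg2 at or near 0. The mesothelial and fibroblast sum was 145.5 to 213 CPM against 83.1 to 143 CPM. Most of that sum was Col1a1 (means of 122 against 69.5 CPM). Upk3b, Wt1 and Col3a1 overlapped between the groups, and Msln was near 0 in both. The part of these markers was not tested.

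Il2rg was higher still with the Myc pool. It had 133, 129 and 154 CPM against 76.4, 82.2 and 80.3 CPM with the negative pool, a log2 fold change of 0.80 ± 0.12 (SE, adjusted p = 8.01e-06). The Myc pool, also part of the combined pools, came from another supplier than the other targeting pools. Silencing of Myc and the source of its siRNA cannot be told apart. The other 3 called genes fell, and 29.6% (13.9% higher and 15.6% lower) of all genes were called. Jak1 had 270.0, 265 and 275 CPM against 319.6, 320.4 and 322 CPM, with log2 fold change -0.25 ± 0.05 (SE, adjusted p = 0.000195), and Ifngr2 206, 198 and 205 CPM, with log2 fold change -0.28 ± 0.07 (SE, adjusted p = 0.00278). Il13ra1 had 54.7, 45.9 and 54.9 CPM, with log2 fold change -0.34 ± 0.12 (SE, adjusted p = 0.0254), which was lost without replicate 3 of the negative pool or replicate 2 of the Myc pool (adjusted p 0.111 and 0.147). In the same samples 7 of 11 IL-4 response genes were lower, among them Clec10a with -1.68 ± 0.22. Of the 24 other receptors tested, 2 were higher and 8 lower, where 29.6% of all genes were called, with Il6st at -0.48 ± 0.08, and of the 20 adaptors and inhibitors 6 were higher and 2 lower, with the adaptor Sh2b2 at 1.04 ± 0.10. The T and NK cell marker sum, most of which was Lat, was 22.0 to 29.2 CPM against 47.99 to 56.3 CPM, with Cd3d, Cd3e and Cd3g at or near 0.

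With the combined pools 1 of the 10 genes was higher and 2 lower than with the negative pool, beside 26.5% (12.5% higher and 13.9% lower) of all genes called. Il2rg had 140.3, 133 and 162 CPM, with log2 fold change 0.87 ± 0.12 (SE, adjusted p = 2.69e-06). Jak1 had 283, 286 and 283 CPM, with log2 fold change -0.17 ± 0.05 (SE, adjusted p = 0.00676), and Ifngr2 217, 207 and 212 CPM, with log2 fold change -0.22 ± 0.07 (SE, adjusted p = 0.0196). Without a filter on low counts, adjusted p for Jak1 was 0.171. The call of Ifngr2 was lost without replicate 1 of the negative pool or replicate 2 of the combined pools (adjusted p 0.0706 and 0.0715). Against mock instead, 3 genes were higher and 2 lower, beside 37.1% (19% higher and 18.1% lower) of all genes called, and Il2rg differed by 1.84 (adjusted p = 7.6e-13). The other calls were Il4ra with 0.56, Il13ra1 with 0.44, Ifngr1 with -0.42 and Jak1 with -0.16 on the log2 scale, and that of Jak1 was lost without a filter (adjusted p = 0.173). A comparison with mock includes what the negative pool changed. Ifnb1, the type I interferon IFN-β, had 9 to 24 counts per sample with the combined pools, 12 to 30 with the Myc pool and 0 to 4 with the negative pool, differences that passed the test (log2 fold change 3.15 ± 0.73 and 3.22 ± 0.72, adjusted p 0.00214 and 0.00134) on few reads. It was singled out after its values were seen.

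The remaining pools gave few calls. With the Stat6 pool, 1 of the 10 genes was called beside 1.51% (0.466% higher and 1.04% lower) of all genes. This was Ifnar1, with 96.8, 99.0 and 89.1 CPM against 107, 117 and 119 CPM and a log2 fold change of -0.27 ± 0.07 (SE, adjusted p = 0.0343). It did not hold without replicate 2 or 3 of the negative pool or without any one replicate of the Stat6 pool (adjusted p 0.0681 to 0.199). Il4ra, upstream of Stat6, had 61.9, 61.7 and 60.6 CPM with that pool and 64.2, 62.2 and 63.5 CPM with the negative pool. With the Pparg pool 0 were called by edgeR and 1 by DESeq2, beside 5.74% (2.71% higher and 3.03% lower) of all genes called. An unadjusted p under 0.05 was found for 1 of the 10 and for 2737 of 14172 genes. In both cases the gene was Il2rg, with 97.8, 97.6 and 114 CPM and a log2 fold change of 0.37 ± 0.12 (SE, adjusted p = 0.0706). Its groups did not overlap. With the E2f1 pool 0 were called by edgeR and by DESeq2, beside 0.91% (0.261% higher and 0.649% lower) of all genes called. At an unadjusted p under 0.05 there were 1539 of 14172 genes, and 1 of the 10. This was Tyk2, which had 90.2, 97.0 and 93.5 CPM against 101, 104 and 112 CPM with the negative pool and log2 fold change -0.17 (adjusted p = 0.305).

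Ratios of receptor chains were compared per sample, as log2 of the levels per length. With 3 samples against 3 the exact permutation test cannot go below 0.1, and over the 38 ratio tests the smallest Benjamini-Hochberg value was 0.158. Il2rg over Il13ra1 was 0.90, 1.03 and 0.83 with the negative pool, 1.92, 2.13 and 2.13 with the Myc pool and 2.02, 2.05 and 2.04 with the combined pools. The samples of both pools lay above those of the negative pool, by 1.14 (exact permutation test, two-sided, p = 0.1) for Myc and 1.12 (exact permutation test, two-sided, p = 0.1) for the combined pools. Samples of the Pparg and Stat6 pools also lay wholly above, by 0.42 and 0.45 with the same exact p, while the E2f1 pool, at 0.12, overlapped the negative pool (exact p = 0.2). Between M2-like macrophages and M0 this ratio differed by 0.68 at 24 h and by -0.55 in untransfected cells of the reprogramming experiment, and between M1-like and M2-like macrophages by -0.49 and 0.81. In each of these the groups were apart (exact p = 0.1), and the difference between the experiments was not tested. For Ifngr1 over Ifngr2 the values at 24 h were -0.25, -0.22 and -0.17 in M0 and -1.77, -1.81 and -1.83 in M1-like macrophages, a difference of -1.59 (exact permutation test, two-sided, p = 0.1). In untransfected cells of the reprogramming experiment it was -1.28 (exact permutation test, two-sided, p = 0.1), and for the negative pool against mock -0.81 (exact permutation test, two-sided, p = 0.1).

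**Figure D4:**
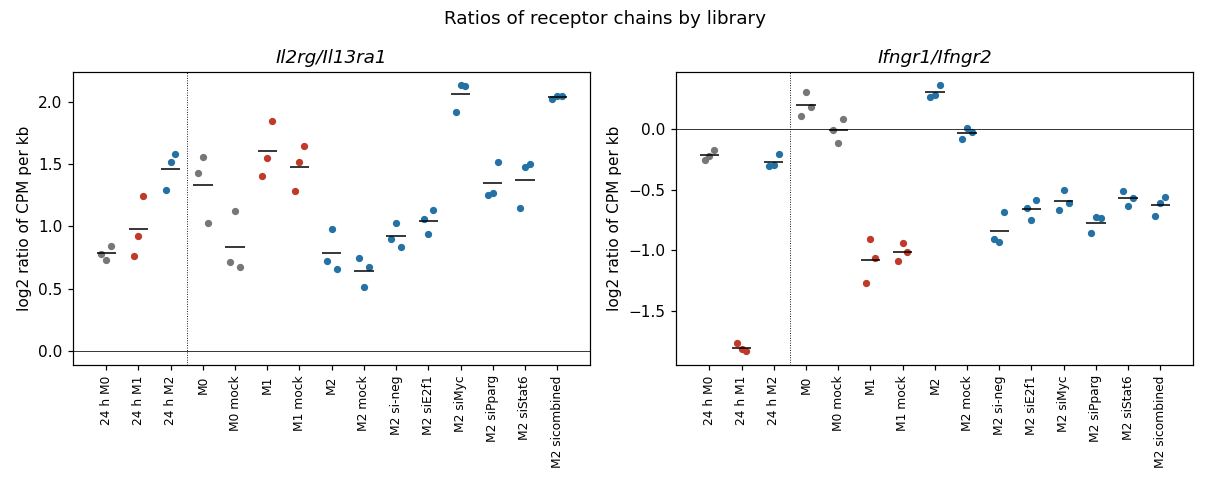
Log2 ratios of levels per length (vertical axis, CPM per kilobase) of Il2rg over Il13ra1 (left) and Ifngr1 over Ifngr2 (right) in every sample, with a black line at the mean of each condition. M1-like conditions (red) have the lowest mean Ifngr1 over Ifngr2 ratio in each experiment.

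Across the 12 conditions of the reprogramming experiment, the levels ordered differently by gene. Il4ra was highest in untransfected M1-like, then in mock M1-like macrophages, whose ranges did not overlap, and lowest in mock and untransfected M2-like macrophages, whose ranges did. Il2rg was highest in untransfected and mock M1-like macrophages, followed by the combined and Myc pools, and neighbours in this order overlapped. Ifngr1 ran the other way, with untransfected M2-like macrophages first and both M1-like conditions last, apart from all others. Jak3 had overlapping neighbours throughout. Tyk2 overlapped between all neighbours except the last, the E2f1 pool.

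As a description over the 36 libraries of the reprogramming experiment, which share conditions, the gene with the log2 CPM most correlated with Il2rg was Acod1 (Pearson r = 0.984), the enzyme that makes itaconate. For Il4ra it was Tbc1d9 (0.965), followed by Cd86 (0.963), a costimulatory ligand. For Ifngr1 it was Lyz2 (0.961), which encodes lysozyme, and for Jak2 Tmem67 (0.964). The values were lower for Jak3, with Dennd1a at 0.745, and for Tyk2, with Trim3 at 0.727.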

How the data were processed

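RNA sequencing counts of 54 libraries were used. The authors deposited raw read counts per gene, made with Trimmomatic, TopHat2 and featureCounts on mm10 per the labels (versions not given in the sources used here), without normalization. Symbols and exon lengths came from GENCODE M21, which matched 37693 of 39179 identifiers. Conditions were read from the labels. Technical replicates (2 per mouse and condition) gave a chi-square per gene of 1.07 to 1.10, against 3.63 to 52.4 between mice, and were summed. Replicates of the reprogramming experiment gave 4.48 to 23.0.

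One model per experiment was fitted in edgeR, after its filterByExpr step (at least 10 counts, total at least 15) and TMM scaling. Differences were judged by the two-sided quasi-likelihood test, adjusted by Benjamini-Hochberg over all genes tested, at a threshold of 0.05. The study used DESeq2, which was run as an alternative. In the polarization experiment the same mouse gave each condition, so its numbers pair the samples, and the median correlation of deviations was 0.268 for the same mouse and -0.141 for different mice. Ratios were tested with exact permutation tests. Tests were checked on simulated counts. R 4.3.3, edgeR 4.0.16, DESeq2 1.42.0, Python 3.11.15, SciPy 1.17.1, pandas 2.3.3, NumPy 2.4.6 and matplotlib 3.10.9 were used.

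The 10 genes and the gene lists were chosen with earlier results of these data known. Named in the text are the 10 genes, the siRNA targets, from each list the called genes with the largest fold changes and a mean of at least 1 log2 CPM (up to 3 per direction), markers of other cells, and the genes most correlated with each of the 10. The siRNA target, ligand, receptor, adaptor and inhibitor, IL-4 response, interferon response and marker lists were used, and 1 marker list is not reported here. The ligand Ifna11 and the interferon response gene Gbp5 were not analysed here. Ifnb1 is named by its level, chosen after its values were seen. Other settings are given in the closing section.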

Additional observations from a re-analysis of the deposited data

Results flagged for a closer look

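The difference of Il13ra1 between M1-like macrophages and M0 was smaller in mock than in untransfected samples. The interaction was -0.79 on the log2 scale (edgeR's quasi-likelihood test, adjusted p = 0.0017). Mock and untransfected M1-like means were 88.1 and 90.9 CPM, and those of M0 were 47.4 and 28.3 CPM. The reagent and harvest time cannot be told apart.

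Every sample moved one way at 24 h and the opposite way in the untransfected macrophages of the reprogramming experiment for 2 genes, and these differences between the experiments were not tested. Ifnar1 differed by 0.55 at 24 h and by -0.56 in the reprogramming experiment for M1-like against M0, and by 0.58 and -0.49 for M1-like against M2-like. Il2rg differed by 0.12 at 24 h, which did not pass the test, and by -0.38 in the reprogramming experiment for M2-like against M0. Read length and sequencing facility also differed between the experiments, the harvest time of the untransfected macrophages is not given, and these cannot be told apart from the differences.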

How the results depend on the processing

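The alternatives covered 220 values (10 genes in 22 comparisons), of which 81 were called. No called value changed its sign in any alternative. A sign change occurred in 82 fits of 41 values, none called in either fit, 74 of them when a replicate was left out, and the largest such value was 0.22 on the log2 scale. Single values were followed where they were called or were at least 0.2 in size, a limit set after the alternatives had been seen. Among these, Il13ra1 for mock M2-like against mock M0 reversed, and its values without 1 replicate ran from -0.37 to 0.0222, the latter without replicate 3 of mock M0. Depth limits Jak3 most, with 221 counts in its lowest sample.

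Counts of called genes among the 10 that moved by more than 1.5 times are given by setting. The cause was not tested, except that the fold limit is stricter by construction. Fits of only the groups compared gave higher counts in some comparisons and lower counts in others. With technical replicates as separate samples, M2-like against M0 at 24 h had 9. That setting treats replicates of the same mouse as independent, which they are not, so its count is no measure of the spread between mice. Over all genes it called 3592 higher and 3606 lower, against 2176 and 2323 in the main fit. With a log2 fold change of at least 1 in size, M2-like against M0 had 0 in each of the 24 h, untransfected and mock comparisons, untransfected M1-like had 5 against M0 and 4 against M2-like, and mock M1-like had 2 and 4. The same limit left 0 for mock treatment of M0, the negative pool against mock, and the combined, Myc and Stat6 pools against the negative pool, and 1 for the combined pools against mock. With only the groups compared in the fit, the counts were 1 for untransfected and 0 for mock M2-like against M0, 1 for mock treatment of M0, 5 for the combined pools, 1 for Pparg and 0 for Stat6, each against the negative pool. Without a filter they were 3 for mock M2-like against M0, 2 and 1 for mock treatment of M0 and of M2-like macrophages, 1 for Pparg, 0 for Stat6 and 3 for the M1-like against M0 interaction. DESeq2 gave 2, 1 and 3 for mock M2-like against M0, Pparg and that interaction. Leaving out 1 replicate gave 0 to 2 for untransfected and 0 to 3 for mock M2-like against M0, 2 to 3 and 0 to 1 for mock treatment of M0 and of M2-like macrophages, 0 to 1 for Stat6, 1 to 2 for the M1-like and 0 to 1 for the M2-like against M0 interaction. With only exon bases of no other gene as length, and all counted reads kept, levels per kilobase in M0 changed. They were 22.9 for Il2rg, 1.99 for Jak3 and 13.6 for Tyk2 at 24 h, and 27.9 for Il2rg and 17.0 for Tyk2 in the reprogramming experiment.

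With the replicate block, no call at 24 h changed. In the reprogramming experiment, where samples share only a number (median correlation of deviations 0.184 for the same number and -0.087 for different numbers), the block gave 3 calls for mock M2-like against M0, 1 for Pparg and 2 for the M1-like against M0 interaction. It added 7 calls in all and lost none.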
